A study of Mus musculus with 20 samples.

Results

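The genes described here encode 8 transcription regulators of blood stem and progenitor cells, Gata2, Tal1, Lyl1, Lmo2, Fli1, Erg, Etv6 and Zfpm1, out of 21938 protein-coding genes annotated in the mouse. Members were chosen by name, and the data on each were all ChIP-Seq peaks that overlapped its gene body or the 50 kb on either side. These windows took in 2313 of the 591292 peaks in 12 peak lists, 1 list for each of H3K27ac, H3K4me1 and H3K4me3 in each of 4 genotypes. The cells were lineage-depleted (Lin-) bone marrow cells of mice on a floxed Ep300 background. WT mice were Ep300 fl/fl without Cre, Ep300Δ/Δ mice were Mx1-Cre;Ep300 fl/fl, Tet2-/- mice were Ep300 fl/fl;Tet2-/-, and Ep300Δ/ΔTet2-/- mice were Mx1-Cre;Ep300 fl/fl;Tet2-/-. The methods give poly(I:C), 3 doses from 6 to 8 weeks of age, to all of these genotypes, so the controls received the same injections. Mx1-Cre is switched on by interferon and is not limited to blood cells. The cells had a stated purity over 80%, and the number of mice pooled is not given in the sources used here. The methods set experiments at 2 weeks after poly(I:C) unless another time is stated, and none was found for the ChIP-Seq. With 1 library for each genotype and mark there was no replicate, so no test was made between genotypes. Intervals below are exact 95% binomial intervals and cover counting error only.

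Gata2, Tal1, Lyl1, Lmo2, Fli1 and Erg belong to a group of factors, often called the heptad together with Runx1, that bind the same enhancers in stem and progenitor cells. GATA2 is a zinc finger factor, TAL1 and LYL1 are related basic helix-loop-helix factors that bind E-boxes with a partner, LMO2 is a LIM protein that bridges them to GATA factors without binding DNA itself, and FLI1 and ERG are ETS factors. ETV6 is an ETS repressor needed by adult stem cells, and ZFPM1, also called FOG1, is a cofactor of GATA1 and GATA2. The p300 protein, encoded by Ep300, acetylates H3K27. H3K27ac marks active promoters and enhancers, H3K4me1 marks enhancers whether active or not, and H3K4me3 marks promoters.

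The sequences below are elements on which the results turn, from the plus strand of GRCm38, the assembly also called mm10. The first is an intronic Gata2 site, centred on an E-box and a GATA motif spaced 8 bases apart, which are in capitals. The next 4 are the distal H3K27ac regions with the highest WT fold at Tal1 and Erg and an upstream region of Lmo2, which had a peak in all 4 genotypes, and a region inside Fli1 with a peak only in Tet2-/- cells. The last is the Etv6 intronic region with the highest WT fold among those lost after Ep300 deletion on both backgrounds. These 5 are centred on a peak summit, and capitals mark matches on either strand to the GATA motif AGATAA or TGATAA, the ETS motif CAGGAA or CCGGAA, and the RUNX motif TGTGGT, all within the printed window.
Gata2, +9.30 kb, chr6:88203095-88203295: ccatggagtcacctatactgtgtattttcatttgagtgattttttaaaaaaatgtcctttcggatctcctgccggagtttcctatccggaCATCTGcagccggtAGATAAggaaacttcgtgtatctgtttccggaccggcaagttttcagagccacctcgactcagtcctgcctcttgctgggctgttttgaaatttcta
Tal1, +19 kb, chr4:115075225-115075425: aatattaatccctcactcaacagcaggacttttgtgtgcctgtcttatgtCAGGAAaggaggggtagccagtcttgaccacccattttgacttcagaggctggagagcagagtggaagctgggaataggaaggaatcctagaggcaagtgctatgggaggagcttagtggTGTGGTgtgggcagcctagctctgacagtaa
Lmo2, -12.3 kb, chr2:103945629-103945829: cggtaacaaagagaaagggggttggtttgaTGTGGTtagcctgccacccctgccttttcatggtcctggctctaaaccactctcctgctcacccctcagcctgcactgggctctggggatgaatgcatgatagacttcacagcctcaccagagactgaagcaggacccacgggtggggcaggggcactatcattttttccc
Erg, +147.4 kb, chr16:95439553-95439753: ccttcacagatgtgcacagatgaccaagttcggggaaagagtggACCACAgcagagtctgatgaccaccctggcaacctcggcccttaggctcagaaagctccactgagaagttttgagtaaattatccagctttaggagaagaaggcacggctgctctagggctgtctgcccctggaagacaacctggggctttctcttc
Fli1, +13.1 kb, chr9:32529646-32529846: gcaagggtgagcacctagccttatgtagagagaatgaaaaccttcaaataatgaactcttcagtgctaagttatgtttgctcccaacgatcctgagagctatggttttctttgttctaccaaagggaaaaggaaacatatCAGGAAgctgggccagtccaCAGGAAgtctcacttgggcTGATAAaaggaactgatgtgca
Etv6, +29.9 kb, chr6:134065367-134065567: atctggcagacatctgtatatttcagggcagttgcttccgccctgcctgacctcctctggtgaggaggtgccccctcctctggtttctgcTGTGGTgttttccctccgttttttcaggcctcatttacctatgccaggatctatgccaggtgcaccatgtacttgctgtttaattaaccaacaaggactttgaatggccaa
Distances are from the most 5' annotated start of each gene. Outside promoters, 38 of the 128 member regions with H3K27ac in any genotype (29.7%) held an ETS motif within 100 bp of the summit, against 30.3% of all 14280 such regions of the genome. GATA motifs were in 9.38% against 12.3%, RUNX motifs in 19.5% against 16.6%, and E-boxes (CANNTG) in 68.0% against 69.8%. A match describes the letters only and is not a bound site.

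The lists set limits on what can be compared. They held from 18327 to 29659 H3K27ac peaks, from 90738 to 107392 H3K4me1 peaks and from 25012 to 27807 H3K4me3 peaks, and the depth of the libraries is unknown. In the Ep300Δ/Δ H3K27ac list 7.17% of peaks had a q value over the stated 0.05, against 0.78% to 0.9% in the other H3K27ac lists. Folds are the enrichment over the H3 library, given in each list and ranked only within it, as a percentile, since folds of different lists have no common scale. Promoter peaks at Ep300 and Tet2 were present in all 12 lists, and such peaks do not check a deletion elsewhere in the gene. The labelled cell type was checked with H3K27ac at the promoters of 6 progenitor genes, all present in 3 lists and 5 in Tet2-/- cells, where Cd34 had none. Of 4 genes made outside blood none had H3K27ac in any list, though Neurod1 had H3K4me3 in all 4. Of 4 stromal genes Pdgfrb had H3K27ac in WT and Tet2-/- cells, and of 4 endothelial genes Cdh5 had it in Tet2-/- cells. H3K4me3 was at 2, 2, 3 and 4 of these stromal promoters in WT, Ep300Δ/Δ, Tet2-/- and Ep300Δ/ΔTet2-/- cells, and at 3, 4, 3 and 4 endothelial ones. In that order H3K27ac was at 1, 1, 1 and 0 of 4 neutrophil promoters and 1, 0, 0 and 0 of 4 B cell promoters. It was at 1, 1, 1 and 1 of 4 T cell promoters and 2, 3, 3 and 3 of 4 megakaryocyte promoters. Erythroid promoters with H3K27ac numbered 3, 3, 4 and 2 of 4 in WT, Ep300Δ/Δ, Tet2-/- and Ep300Δ/ΔTet2-/- cells. In such bulk samples, fewer cells of a type and less signal in each cell cannot be told apart.

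H3K27ac around the 8 genes was sparsest in Ep300Δ/ΔTet2-/- cells. The windows held 161 H3K27ac peaks in WT, 122 in Ep300Δ/Δ, 111 in Tet2-/- and 62 in Ep300Δ/ΔTet2-/- cells. The whole lists held 29659, 22727, 24539 and 18327 peaks in that order, so the windows took 0.543%, 0.537%, 0.452% and 0.338% of them. All 8 genes had their lowest number in the doubly deficient cells, whose whole list was also the shortest. The share of all protein-coding genes with their lowest number there was not counted. The numbers of H3K4me1 peaks (429, 372, 399 and 408) and H3K4me3 peaks (68, 59, 61 and 61) differed less. By length covered with H3K27ac, 7 of 8 genes lay at or above the 90th percentile of protein-coding genes in WT, Ep300Δ/Δ and Tet2-/- cells, and 6 in Ep300Δ/ΔTet2-/- cells. Long genes have long windows, which raises this percentile for Etv6, Erg and Fli1. By covered length per length of window, 6, 5, 5 and 3 of the 8 lay there in WT, Ep300Δ/Δ, Tet2-/- and Ep300Δ/ΔTet2-/- cells, and the 3 were Tal1, Lyl1 and Lmo2.

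**Figure D1:**
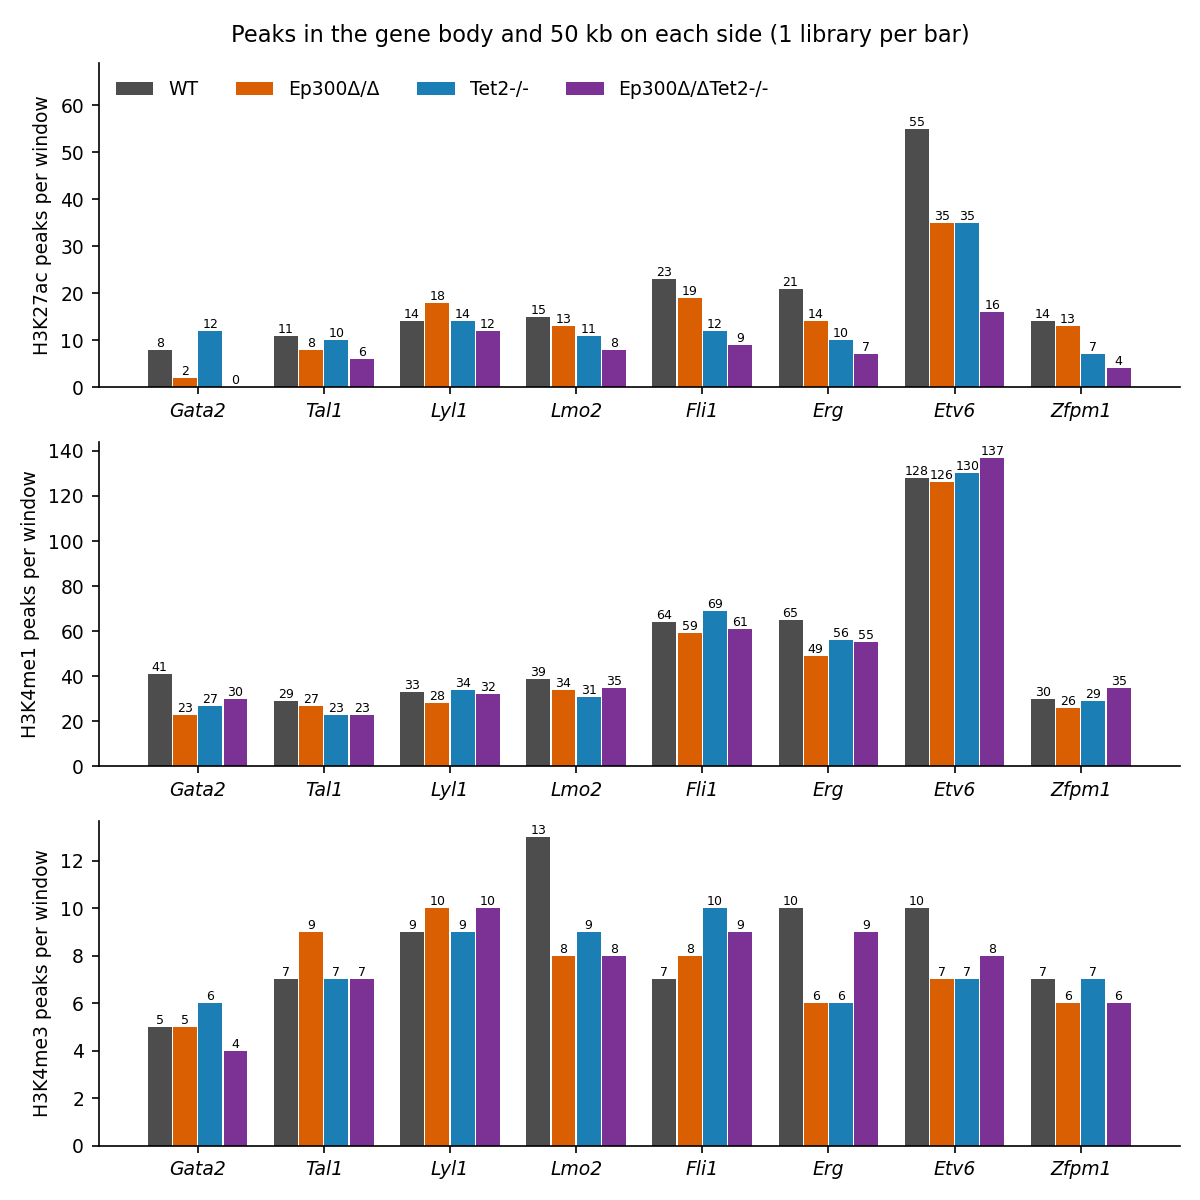
Number of peaks in the window of each gene (gene body and 50 kb on each side) in the lists of H3K27ac (top), H3K4me1 (middle) and H3K4me3 (bottom); each bar is 1 library. H3K27ac numbers for Etv6 ran from 55 in WT to 16 in Ep300Δ/ΔTet2-/- cells, and Gata2 had 0 there.

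A region of 2 merged lists was called lost or gained when only the first or only the second list had a peak in it. After Ep300 deletion on the WT background, 73 of 158 H3K27ac regions of the windows were lost (46.2%, 38.2 to 54.3), against 39.7% of regions in the whole genome. On the Tet2-/- background 52 of 105 were lost (49.5%, 39.6 to 59.5), against 37.8%. Both shares were above the genome's, and of the 2 intervals only the second lay wholly above it. The windows also held a larger share of distal regions, those more than 3000 bp from any annotated start, than the lists as a whole. Among distal regions alone, 65 of 108 were lost on the WT background (60.2%, 50.3 to 69.5), against 62.5% of distal regions in the genome, and 37 of 62 on the Tet2-/- background (59.7%, 46.4 to 71.9), against 61.9%. For distal regions the genome's share lay inside the interval on both backgrounds. Near starts the 2 backgrounds lay on either side of the genome, with 8 of 50 lost on the WT background (16.0%, 7.17 to 29.1), against 26.5%, and 15 of 43 on the Tet2-/- background (34.9%, 21 to 50.9), against 26.8%, both genome shares inside the intervals. Gained regions made up 16 of 101 (15.8%, 9.33 to 24.4) in Ep300Δ/Δ cells, against 12.8%, and 7 of 60 (11.7%, 4.82 to 22.6) in Ep300Δ/ΔTet2-/- cells, against 15.0%. Among distal regions 12 of 55 were gained on the WT background (21.8%), against 21.7%, and 2 of 27 on the Tet2-/- background (7.41%, 0.91 to 24.3), against 30.6%.

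The comparisons across Tet2 share these libraries with those above and are given beside them. From WT to Tet2-/- cells 75 of 156 regions were lost (48.1%), against 35.6% in the genome, and 53.3% of distal ones, against 55.3%. Near starts 18 of 49 were lost (36.7%, 23.4 to 51.7), against 24.1%. Of 100 regions in Tet2-/- cells 19 were gained (11.8 to 28.1%), against 20.3%, and among distal ones 10 of 60 (16.7%, 8.29 to 28.5), against 34.9%. From Ep300Δ/Δ to Ep300Δ/ΔTet2-/- cells 64 of 115 were lost (55.7%, 46.1 to 64.9), against 31.2%. Here the distal share was 65.6% (52.3 to 77.3), with the genome's 51.6% just below the interval, and near starts it was 24 of 54 (44.4%, 30.9 to 58.6), against 24.2%.

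Of 80 regions present in both WT and Tet2-/- cells, 14 were absent after Ep300 deletion on both backgrounds (17.5%), against 12.8% in the genome; among distal regions it was 13 of 50 (26.0%), against 28.3%. Gata2 and Etv6 each held 5 of the 14, Tal1 held 3 and Erg 1. Within 500 bp of 5 of the 14, those at +18.2 and +39.3 kb of Tal1 and at +29.9, +80.7 and +84.6 kb of Etv6, an Ep300-deleted list had a peak; the other 9 (11.2%, against 9.61% in the genome by this rule) took in all 5 at Gata2. A single region, at -19.7 kb of Fli1, was gained on both. Of the 186 H3K27ac regions found in any genotype, 102 were intronic, and 44 had a peak in all 4 lists (23.7%, against 35.5% in the genome). Among distal regions alone it was 19 of 128 (14.8%), against 14.4%.

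**Figure D2:**
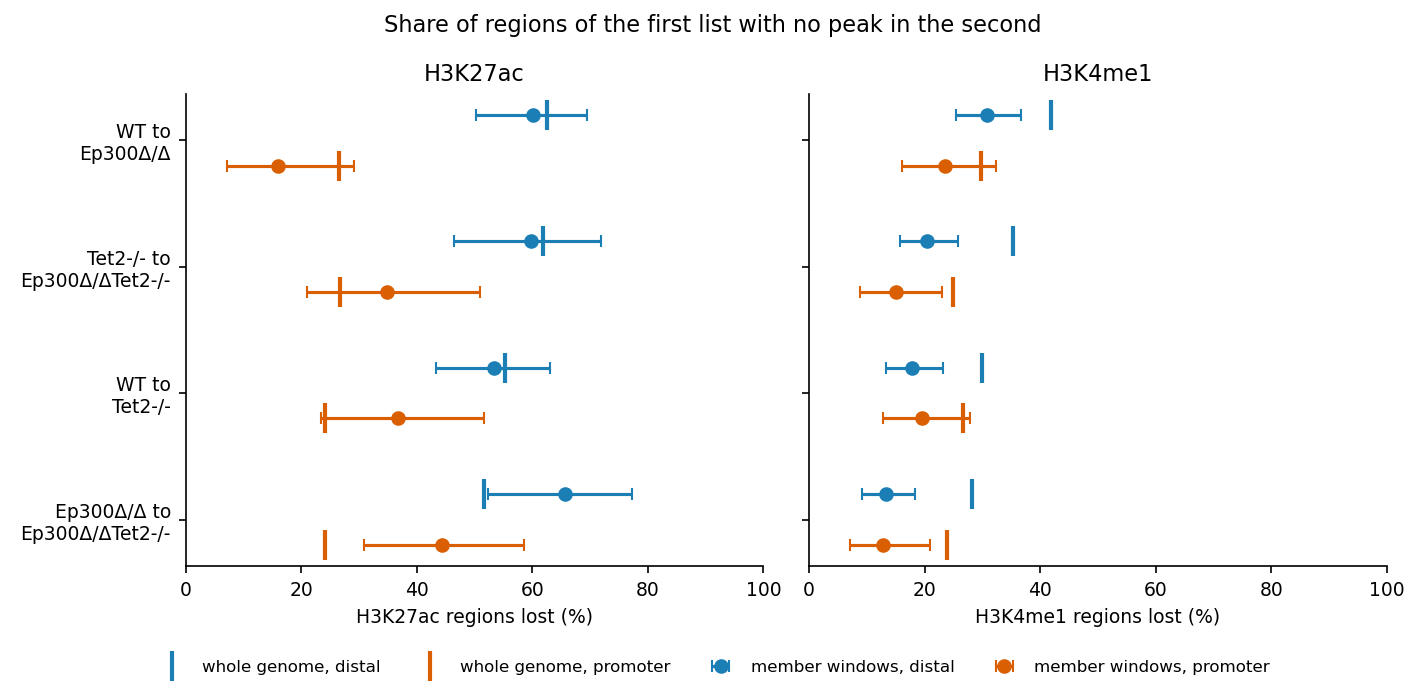
Share of regions of the first list with no peak in the second, for H3K27ac (left) and H3K4me1 (right); dots are the member windows with exact 95% intervals, vertical ticks are the whole genome, blue is distal and orange is within 3000 bp of a start. The blue H3K27ac tick lies inside the interval in the first 3 comparisons, while the blue H3K4me1 tick lies above the interval in all 4.

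Most regions that lost H3K27ac kept H3K4me1, the mark of enhancers whether active or not. On the WT background 111 of 387 H3K4me1 regions were lost after Ep300 deletion (28.7%, 24.2 to 33.5), against 36.7% in the genome, and on the Tet2-/- background 69 of 367 (18.8%, 14.9 to 23.2), against 31.1%. From WT to Tet2-/- cells 68 of 370 were lost (18.4%), against 28.6%. Gained H3K4me1 regions were also fewer than in the genome, at 16.9% against 24.1% and 15.3% against 23.4%. Of the 65 distal regions that lost H3K27ac on the WT background, 60 still had an H3K4me1 peak in Ep300Δ/Δ cells (92.3%, against 76.4% for such regions of the genome), and of the 37 on the Tet2-/- background 34 did (91.9%, against 79.3%). Part of that gap was there before deletion, since 98.5% of the 65 had H3K4me1 in WT cells, against 86.0% in the genome, and 97.3% of the 37 in Tet2-/- cells, against 83.9%. Of the regions that began with H3K4me1, 60 of 64 still had it on the WT background (93.8%, against 85.5%) and 34 of 36 on the Tet2-/- background (94.4%, against 91.7%). Of the 128 distal H3K27ac regions found in any genotype, 118 had H3K4me1 in all 4 lists (92.2%). The genome's share by this rule was not counted, so such counts for single genes below have no comparison with it. For H3K4me3, 16 of 64 regions were lost on the WT background (25.0%, 15.0 to 37.4), against 15.4%, and 13 of 60 on the Tet2-/- background (21.7%, 12.1 to 34.2), against 13.3%. By place, 3 of 30 H3K4me3 regions near a start were lost on the WT background (10.0%), against 10.6%, and 13 of 34 distal ones (38.2%, 22.2 to 56.4), against 30.7%. On the Tet2-/- background it was 4 of 32 (12.5%), against 9.24%, and 9 of 28 (32.1%, 15.9 to 52.4), against 26.1%.

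The distal regions that were lost had been low in their own list. In WT cells the 65 peaks lost after Ep300 deletion had a median fold at percentile 21.1 of the list, and the 43 peaks kept had one at 57.5. Over all distal peaks of WT cells the medians were 25.7 and 56.4. In Tet2-/- cells the gap was smaller, with the 37 peaks lost at 23.0 and the 28 kept at 42.8. Over all distal peaks of Tet2-/- cells the medians were 24.3 and 51.8. The peaks lost were also narrower, with a median width of 461 bp against 626 bp in WT and 373 bp against 545.5 bp in Tet2-/- cells. A region just under the calling threshold counts as absent, and the part of this in the losses was not tested.

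Gata2 (chr6:88193891-88207032, plus strand) was the only one of the 8 genes with no H3K27ac peak in 1 genotype. GATA2 is needed to form and keep blood stem cells. Its window held 8 H3K27ac peaks in WT, 2 in Ep300Δ/Δ, 12 in Tet2-/- and 0 in Ep300Δ/ΔTet2-/- cells, which covered 5.67, 1.12, 6.59 and 0 kb. The order of its percentiles by covered length turned with the window: with 10 kb on each side it was 42.9 in WT and 73.8 in Ep300Δ/Δ cells, where with 50 kb the WT percentile was the higher. All 8 WT regions were lost in Ep300Δ/Δ cells, and all 12 Tet2-/- regions in Ep300Δ/ΔTet2-/- cells. The highest folds in the window stood at percentile 39.0 of the WT list and 48.4 of the Tet2-/- list, so every peak ranked below the middle. With only peaks of −log10 q of at least 5, the Gata2 percentile by covered length was 86.4 in WT and 88.7 in Tet2-/- cells. It was 0 in both Ep300-deleted lists. Of the 4043 protein-coding genes with at least 8 WT peaks in the same kind of window, 35 (0.866%) had 2 or fewer in Ep300Δ/Δ cells. Of the 762 genes with at least 12 in Tet2-/- cells, 2 (0.262%) had 0 in the doubly deficient cells, and these were Gata2 and its neighbour Dnajb8, whose window overlaps. These limits are Gata2's own counts, taken after they were seen, so both shares only describe where Gata2 lies.

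Peaks in the Gata2 gene body were mostly those of Tet2-/- cells. In WT cells it had 1 region with H3K27ac, at +0.3 kb by the first start, with fold 4.49 at percentile 21.5 of the list. In Tet2-/- cells it had 7, from +0.3 to +9.8 kb, with folds of 3.1 to 4.9, and in Ep300Δ/Δ cells 2, at +2.7 and +9.8 kb. All lay within 3000 bp of at least 1 of the 4 annotated Gata2 starts. They ranked low in their lists, with percentiles up to 30.8 in Tet2-/- and 31.3 in Ep300Δ/Δ cells.

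An enhancer in a Gata2 intron, known as +9.5, carries an E-box and GATA motif bound by GATA2 and TAL1. The pair in capitals above lies at chr6:88203185-88203204 and is 1 of 3 such pairs in the Gata2 window. Of 34 such pairs (CANNTG, 6 to 9 bases, then AGATAA or TGATAA, either strand) in the 8 windows, 2 lay in an H3K27ac peak of any genotype and 12 in an H3K4me1 peak. In WT cells alone, H3K27ac peaks covered 5.01% to 18.7% of each window and H3K4me1 peaks 14.9% to 47.3%. Such pairs were not counted over the genome, so whether they lie in peaks more often than other positions was not tested. The +9.30 kb pair lay in no H3K27ac or H3K4me1 peak of any genotype, and in Tet2-/- cells it fell between H3K27ac peaks at +8.9 and +9.8 kb. H3K4me3 lay over it in WT, Tet2-/- and Ep300Δ/ΔTet2-/- cells, with folds of 9.13, 23.1 and 24.8. Another Gata2 pair, at +8.85 kb, was inside a Tet2-/- H3K27ac peak of fold 3.72. None of the 128 distal member regions had a pair within 100 bp of the summit (0%, interval up to 2.84%), against 0.343% of all 14280 distal regions of the genome.

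Downstream of Gata2, overlapping Dnajb8 as GENCODE annotates it, 4 regions from +36.4 to +60.7 kb had H3K27ac in WT cells, 3 of them in Tet2-/- cells and none after Ep300 deletion on either background. The widest merged region, at +58.8 kb, spanned 2777 bp and had top folds of 5.75 in WT and 6.39 in Tet2-/- cells. An upstream region at -28.2 kb had folds of 4.06 and 4.46 and was also absent from both Ep300-deleted lists. Within 2 kb of the known -3 kb element no list had an H3K27ac peak, while H3K4me1 peaks were there in all 4. Measured from later starts, peaks at +4.3 and +8.3 kb, found only in Tet2-/- cells, lay near that distance. Beyond the window, at the distance of the known -77 kb enhancer, H3K27ac peaks were present in all 4 genotypes, with top folds of 8.35 in WT, 3.75 in Ep300Δ/Δ, 4.29 in Tet2-/- and 6.84 in Ep300Δ/ΔTet2-/- cells. The absence of H3K27ac peaks in the doubly deficient cells thus held for the 50 kb window and not beyond it.

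The other marks were present at Gata2 in all 4 genotypes. H3K4me3 covered 12.9 kb in WT, 11.3 kb in Ep300Δ/Δ, 12.6 kb in Tet2-/- and 11.6 kb in Ep300Δ/ΔTet2-/- cells, with widest peaks of 8424, 8389, 5222 and 5286 bp. H3K4me1 covered 31.8, 20.7, 23.8 and 21.1 kb in the same order. GATA2 is also made in mast cells and basophils, and of 4 markers of those cells H3K4me3 was at 1 promoter in WT, 0 in Ep300Δ/Δ, 4 in Tet2-/- and 1 in Ep300Δ/ΔTet2-/- cells; H3K27ac was at 1, 0, 1 and 1, with Mcpt8 the only gene. The genotype with most of these H3K4me3 promoters was thus also the one with most Gata2 gene body peaks, and the part of such cells in those peaks was not tested.

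**Figure D3:**
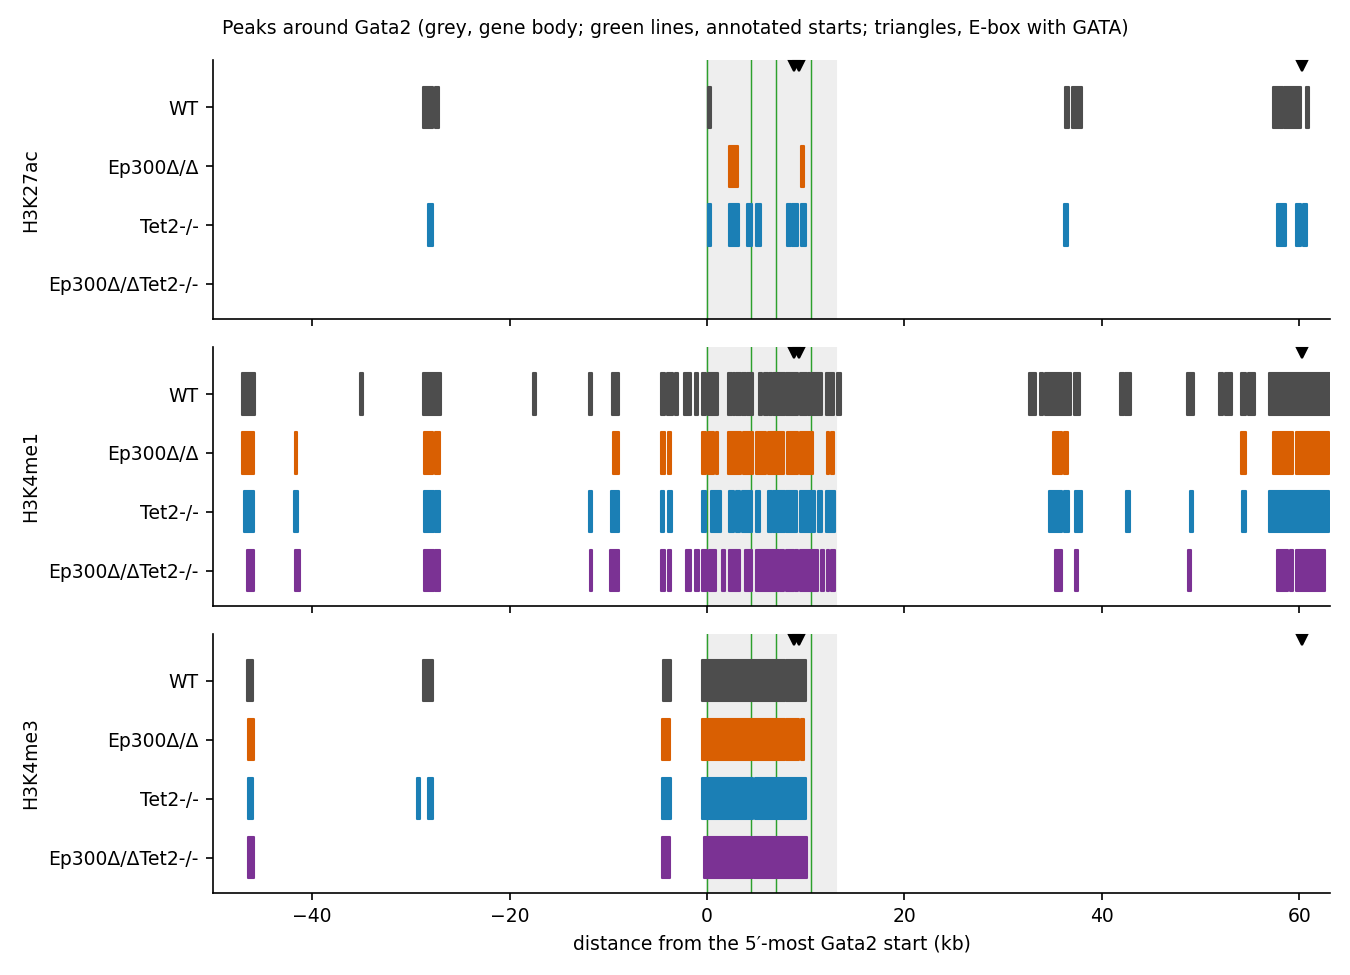
Peaks of the 3 marks around Gata2 in the 4 genotypes, by distance from the most 5' start in kb; grey is the gene body, green lines are annotated starts, triangles mark E-box and GATA pairs, and the narrowest peaks are widened to stay visible. The H3K27ac row of Ep300Δ/ΔTet2-/- cells is empty, while its H3K4me1 and H3K4me3 rows hold 30 and 4 peaks.

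Tal1 (chr4:115056426-115071755, plus strand) had peaks at its promoter and known elements in all 4 genotypes. TAL1 is needed to specify blood stem cells and later for red cells and megakaryocytes. Its window held 11 H3K27ac peaks in WT, 8 in Ep300Δ/Δ, 10 in Tet2-/- and 6 in Ep300Δ/ΔTet2-/- cells. The promoter peak stood at percentile 93.2, 90.7, 85.4 and 90.1 of the lists, with folds of 24.2, 16.9, 15.5 and 19.4.

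The Tal1 enhancers known by their distances were found near them. The region at -3.6 kb had folds of 6.12, 5.87, 4.17 and 7.5 in WT, Ep300Δ/Δ, Tet2-/- and Ep300Δ/ΔTet2-/- cells, and the region at +40.1 kb had 4.22, 3.8, 7.05 and 4.97. The stem cell enhancer region at +19 kb had 8.86, 6.73, 3.92 and 5.81. Beside these kept regions, other peaks at -8.3, +18.2 and +39.3 kb were present in WT and Tet2-/- cells and absent after Ep300 deletion on both backgrounds. The flanks at +18.2 and +39.3 kb ended 206 and 80 bp from the nearest peak of Ep300Δ/ΔTet2-/- cells, at the kept regions beside them. The flank at +18.2 kb had the highest Tet2-/- fold of the 3, 9.64 at percentile 69.2 of that list. H3K4me1 was present in all 4 lists at all 3 flanks.

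Lyl1 (chr8:84701457-84704715, plus strand), a relative of Tal1 that can stand in for it in adult stem cells, lost the fewest regions on the WT background. Its window held 14, 18, 14 and 12 H3K27ac peaks in WT, Ep300Δ/Δ, Tet2-/- and Ep300Δ/ΔTet2-/- cells. Ep300Δ/Δ cells kept 12 of its 13 WT regions and gained 0, so their larger number of peaks came from regions called in more pieces. The window is gene-dense, and 9 of its 13 regions were at promoters of other genes such as Ier2, Nacc1 and Nfix. The Lyl1 promoter had folds of 26.8, 13.2, 22.0 and 21.4. Both distal regions had a peak in all 4 genotypes, the one at -44.6 kb with folds of 5.19, 5.16, 6.1 and 4.17 and the one at +29.5 kb with 6.52, 5.57, 6.39 and 4.91.

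Lmo2 (chr2:103957986-103981878, plus strand), the bridging protein, had 15, 13, 11 and 8 H3K27ac peaks in the same order. Its promoter regions at +0.7 and +11.4 kb were acetylated in all 4 genotypes, the one at +0.7 kb with folds of 8.62, 5.86, 6.51 and 7.85 and the one at +11.4 kb with 13.9, 10.7, 11.6 and 19.1. Another at -0.8 kb had no peak in Tet2-/- cells and folds of 4.18, 3.55 and 4.27 in the others. The upstream region at -12.3 kb was also kept, with folds of 8.11, 6.58, 11.3 and 9.94. The group of 4 regions from -26.3 to -22.8 kb, near a known enhancer at -25 kb, had peaks at 4, 2, 2 and 1 of them. From the later Lmo2 starts the region at -12.3 kb also lies near that distance, at -24.4 to -25.5 kb, so which region matches the known enhancer depends on the start. Of these 4, the region with the highest WT fold, at -23.6 kb, had a fold of 11.4 in WT, 4.03 in Ep300Δ/Δ and 3.47 in Tet2-/- cells and no peak in Ep300Δ/ΔTet2-/- cells. All 7 upstream regions had H3K4me1 in all 4 lists. Beyond the window, within 2 kb of the known -75 kb element, only Tet2-/- cells had an H3K27ac peak, with fold 4.0.

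**Figure D4:**
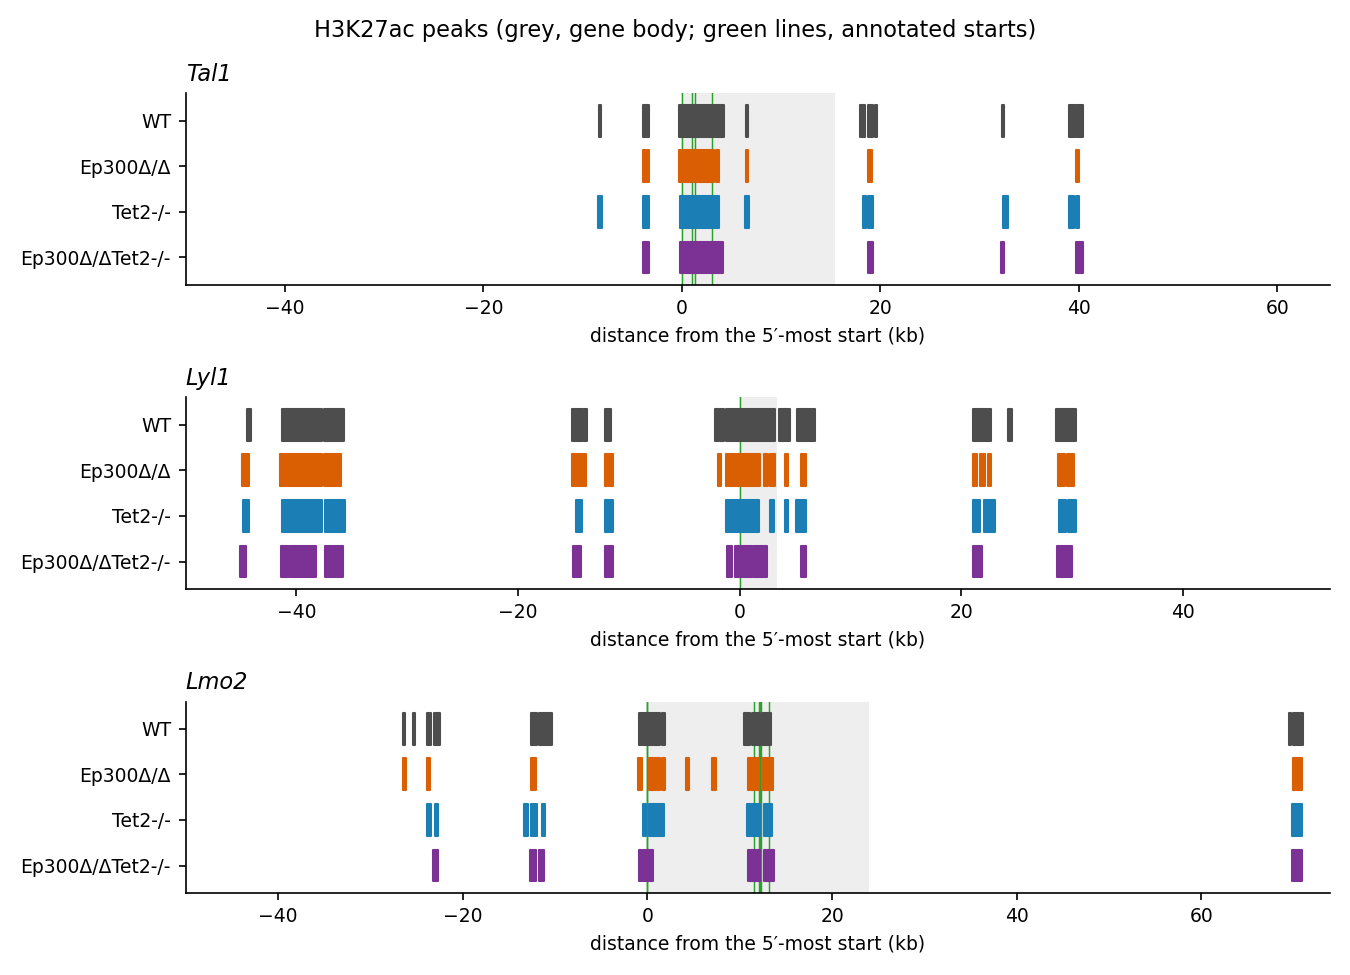
H3K27ac peaks around Tal1, Lyl1 and Lmo2 in the 4 genotypes, by distance from the most 5' start in kb; grey is the gene body, green lines are annotated starts, and the narrowest peaks are widened to stay visible. The Tal1 elements near -4, +19 and +40 kb and the Lmo2 element near -12 kb have a peak in every row.

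Fli1, Erg and Etv6, the ETS members, have long introns that held many of their H3K27ac peaks. Fli1 (chr9:32422204-32542861, minus strand), an activator in stem cells, megakaryocytes and endothelium, had 23 H3K27ac peaks in WT, 19 in Ep300Δ/Δ, 12 in Tet2-/- and 9 in Ep300Δ/ΔTet2-/- cells. Its promoter was kept, with folds of 13.3, 17.3, 21.9 and 21.1 at percentiles 80.1, 91.2, 92.9 and 91.8. The 18 regions from +21.1 to +43.2 kb, a cluster picked out after its values were seen, had H3K27ac at 16 in WT, 11 in Ep300Δ/Δ, 7 in Tet2-/- and 4 in Ep300Δ/ΔTet2-/- cells, with 3 of them in all 4 lists. All 18 had H3K4me1 in all 4 lists. In the whole Fli1 window 6 of 13 distal WT regions were lost in Ep300Δ/Δ cells, against 62.5% of distal regions in the genome. From WT to Tet2-/- cells it was 7 of 13, against 55.3%, and on the Tet2-/- background 4 of 7, against 61.9%.

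The Fli1 region at +13.1 kb lies 11.8 kb past the second annotated start, the distance of the known +12 enhancer bound by the heptad. It is also within 3000 bp of a start of Gm37474. It had H3K27ac only in Tet2-/- cells, with fold 5.2 at percentile 34.2, while H3K4me1 peaks within 2 kb of +12 kb had top folds of 10.2 in WT, 12.6 in Ep300Δ/Δ, 17.2 in Tet2-/- and 15.2 in Ep300Δ/ΔTet2-/- cells, all above percentile 98. The region at -13.3 kb had H3K27ac in WT, Tet2-/- and Ep300Δ/ΔTet2-/- cells, with folds of 5.39, 4.07 and 2.53. The sequence printed for +13.1 kb holds 2 ETS motifs and 1 GATA motif.

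Erg (chr16:95359169-95586593, minus strand), which maintains stem cells and is shared with endothelium, had 21, 14, 10 and 7 H3K27ac peaks in WT, Ep300Δ/Δ, Tet2-/- and Ep300Δ/ΔTet2-/- cells. All of them lay past the internal starts near +127.3 kb, and the first start at 0 kb had none. The promoter region at +128.0 kb had folds of 18.7, 12.2, 15.1 and 20.5. The region at +147.4 kb, 85.4 kb past the annotated start at +61.99 kb and so at the distance of the known +85 enhancer, had folds of 24.7 in WT, 8.01 in Ep300Δ/Δ, 14.4 in Tet2-/- and 13.2 in Ep300Δ/ΔTet2-/- cells. These stood at percentiles 93.6, 66.2, 83.2 and 79.9, so this element was present in all 4 lists and ranked highest in WT.

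The neighbouring Erg region at +136.8 kb, 74.8 kb past that start, had folds of 16.0, 3.68, 7.79 and 7.34 in the same order. From the start at +56.23 kb another region, at +131.6 kb, also matches the known +75 enhancer, with folds of 4.23, 4.32, 3.8 and 4.62, so which region it is depends on the start. Of 19 regions from +128.0 to +159.5 kb, 15 had H3K27ac in WT, 12 in Ep300Δ/Δ, 8 in Tet2-/- and 6 in Ep300Δ/ΔTet2-/- cells, and the same 6 were in all 4 lists. These 6 had WT folds of 4.23 to 24.7, and the other 9 regions of WT cells had 3.54 to 8.08. In the whole Erg window 13 of 19 distal WT regions were lost in Ep300Δ/Δ cells, against 62.5% of distal regions in the genome. From WT to Tet2-/- cells it was also 13 of 19, against 55.3%, and on the Tet2-/- background 3 of 8, against 61.9%. The starts used for these distances were taken after the values were seen, since no peak lay near +75 or +85 kb of the first start.

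Etv6 (chr6:134035700-134270158, plus strand) had the most H3K27ac peaks of the 8 genes in every genotype, with 55 peaks in WT, 35 in Ep300Δ/Δ, 35 in Tet2-/- and 16 in Ep300Δ/ΔTet2-/- cells. They covered 30.1, 14.7, 17.5 and 9.82 kb. Its promoter region at +0.6 kb ranked high in all 4, with folds of 30.4, 20.2, 20.6 and 30.3 at percentiles 96.0, 93.9, 91.8 and 96.7. The intronic regions differed: of 55, from +4.8 to +185.1 kb, 46 had H3K27ac in WT, 21 in Ep300Δ/Δ, 28 in Tet2-/- and 9 in Ep300Δ/ΔTet2-/- cells, and 7 had it in all 4. Of 46 distal WT regions 28 were lost in Ep300Δ/Δ and 25 in Tet2-/- cells, against 62.5% and 55.3% of distal regions in the genome. On the Tet2-/- background 19 of 28 were lost after Ep300 deletion, against 61.9%. From Ep300Δ/Δ to Ep300Δ/ΔTet2-/- cells it was 17 of 24, against 51.6%. H3K4me1 was in all 4 lists at 51 of the 55, where it was at 118 of the 128 distal regions of the 8 windows.

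The Etv6 region at +29.9 kb, whose sequence is printed above, had folds of 11.4 in WT and 5.72 in Tet2-/- cells and no peak in either Ep300-deleted list. A neighbouring region at +29.2 kb had folds of 7.08 in WT, 7.86 in Tet2-/- and 4.92 in Ep300Δ/ΔTet2-/- cells, with its peak in the last 149 bp away, and none in Ep300Δ/Δ cells, where the nearest peak was 6255 bp away. The other 4 Etv6 regions lost on both backgrounds were at +25.4, +80.7, +84.6 and +100.2 kb, with WT folds of 4.11 to 6.01. By contrast the region at +79.8 kb had folds of 15.0, 8.75, 8.92 and 5.94 and was kept throughout, less than 1 kb from a lost one.

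Zfpm1 (chr8:122282141-122337251, plus strand), the GATA cofactor, had 14, 13, 7 and 4 H3K27ac peaks in WT, Ep300Δ/Δ, Tet2-/- and Ep300Δ/ΔTet2-/- cells, and its distal peaks were missing in both Tet2-/- genotypes. Of 7 distal regions from +4.5 to +67.8 kb, all 7 had H3K27ac in WT, 3 in Ep300Δ/Δ, 0 in Tet2-/- and 0 in Ep300Δ/ΔTet2-/- cells, and all 7 had H3K4me1 in all 4 lists. From WT to Tet2-/- cells 7 of 7 were thus lost, against 55.3% of distal regions in the genome. From WT to Ep300Δ/Δ cells it was 4 of 7, against 62.5%. The strongest, at +67.8 kb, had folds of 8.98 in WT and 4.31 in Ep300Δ/Δ cells. Its promoter region at +2.9 kb was kept, with folds of 10.9, 6.34, 5.66 and 7.49. H3K4me1 formed very wide peaks here, the widest being 34635 bp in WT, 43239 in Ep300Δ/Δ, 21471 in Tet2-/- and 10828 in Ep300Δ/ΔTet2-/- cells, while the length covered was 73.3, 70.7, 72.5 and 70.0 kb.

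**Figure D5:**
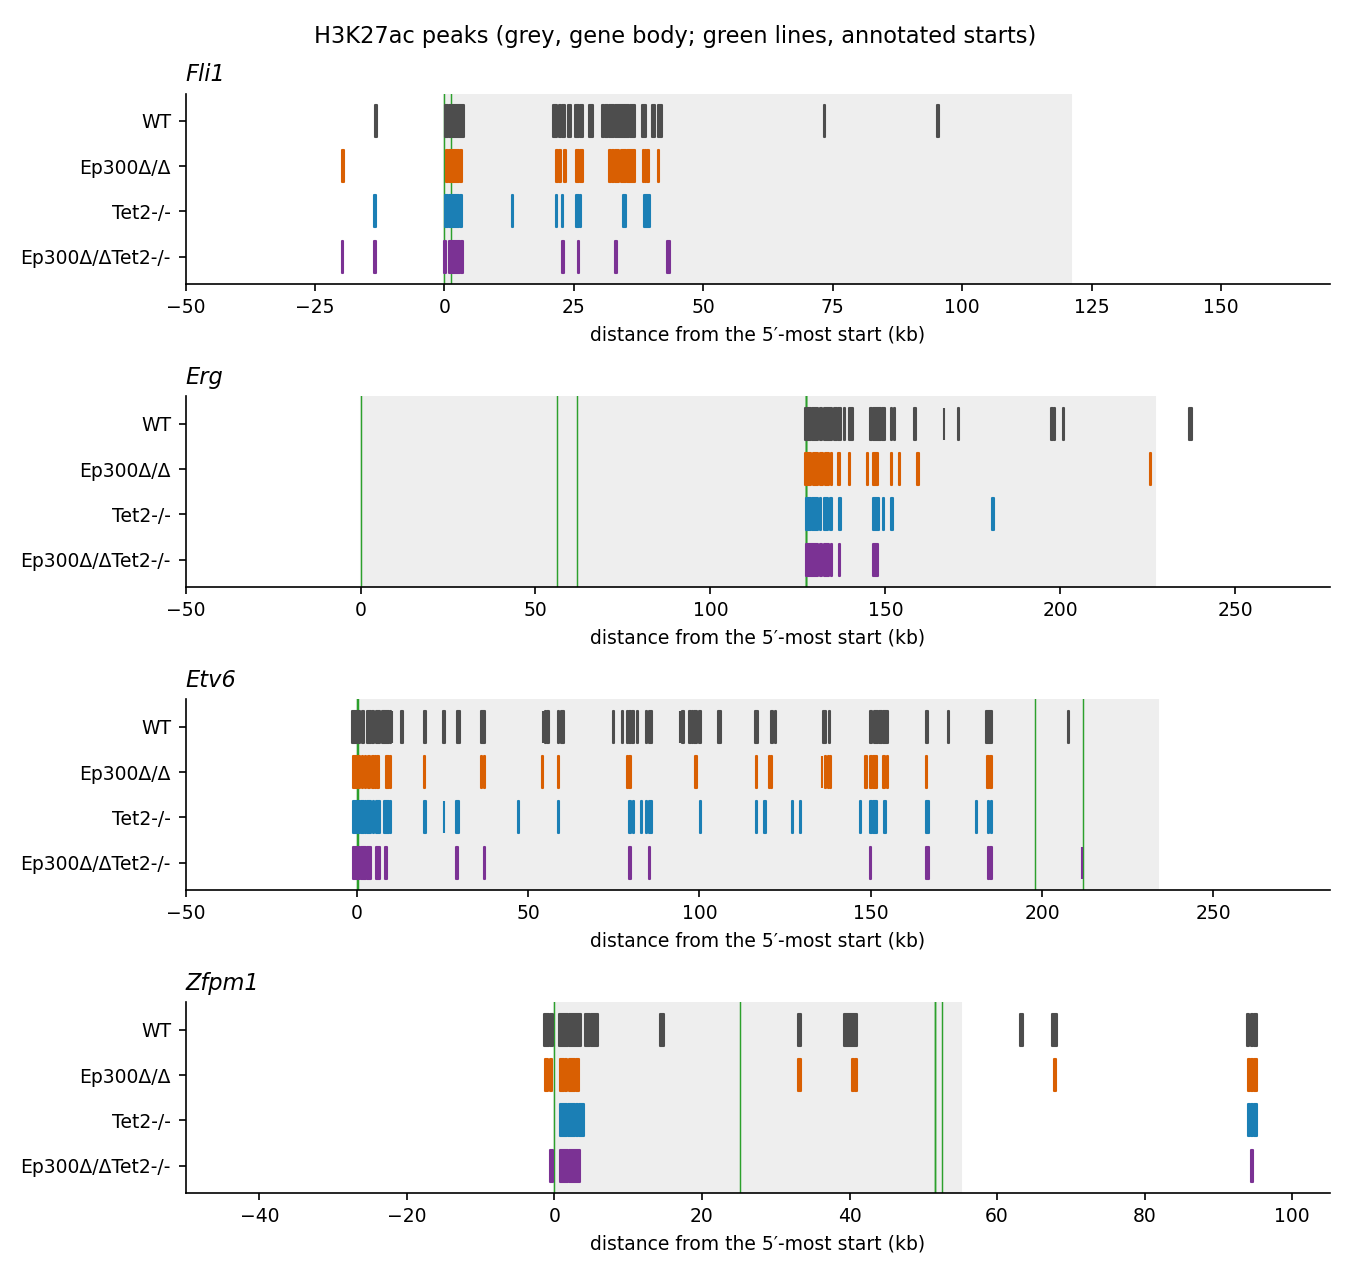
H3K27ac peaks around Fli1, Erg, Etv6 and Zfpm1 in the 4 genotypes, by distance from the most 5' start in kb; grey is the gene body, green lines are annotated starts, and the narrowest peaks are widened to stay visible. Promoter peaks are in every row, and the intronic and downstream peaks thin out from WT to Ep300Δ/ΔTet2-/- cells, most clearly for Etv6 (46 to 9 intronic regions) and Zfpm1 (7 to 0 distal regions). The whole H3K27ac list also went from 29659 to 18327 peaks between these genotypes. The genome's share of distal regions lost between them was not counted.

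A list of 22 partners of these factors, such as Runx1, Gata1, Ldb1, Tcf3 and Cbfa2t3, was read in the same way. After Ep300 deletion 63 of 169 H3K27ac regions in their windows were lost on the WT background (37.3%) and 56 of 147 on the Tet2-/- background (38.1%), near the 39.7% and 37.8% of the genome. Runx1, the last heptad factor, had 27, 23, 20 and 12 H3K27ac peaks in WT, Ep300Δ/Δ, Tet2-/- and Ep300Δ/ΔTet2-/- cells. Gata1, the GATA factor of red cells and megakaryocytes, named after its values were seen, had 6, 0, 5 and 2 peaks, with all 6 WT regions lost in Ep300Δ/Δ cells and 2 of 4 Tet2-/- regions lost in the doubly deficient cells. Meis1, a homeobox factor of stem cells chosen in the same way, had 3, 12, 7 and 14 peaks, most in the doubly deficient cells.

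The gene most like each member, by Pearson's r over the 12 lists of the log2 share of each list's covered length that fell in the window, was Ext1 for Gata2 (0.978), Zfyve1 for Tal1 (0.991), Samd4b for Lyl1 (0.986), Ccdc97 for Lmo2 (0.939), Sik1 for Fli1 (0.984), Gm20696 for Erg (0.990), Fam107b for Etv6 (0.994) and Tmem131 for Zfpm1 (0.986). The 12 points mix 3 marks and 4 genotypes, and all genes share the depth of each list, so r takes in differences between marks as well as between genotypes. Runx1 was second for Etv6 (0.993).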

How the data were processed

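The data were narrow peak lists of 3 histone marks in Lin- bone marrow cells, 12 deposited lists with 1 library for each mark and genotype. The 8 H3 and H3K27me3 samples came without a list here and were not analysed. The submitters' processing notes name cutadapt 1.15, BWA 0.7.13, Picard, MACS2 2.1.1.20160309 and the mm10 build. Per the methods, peaks were those shared by pseudo-replicates of a library, called against H3, and the authors state a q value under 0.05. The labels describe single-end reads and the methods paired-end reads. Each deposited list gives the authors' score (not used) and a fold enrichment ratio over H3. It also gives −log10 values, of which the deposited q value column was used, and a summit. No list carries read counts, so depth is unknown.

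Samples were grouped by the genotype and mark in their titles. Windows were gene bodies of GENCODE release M21 with 50 kb on each side. Regions of 2 lists were merged and called lost, kept or gained, where an overlap of 1 bp counted. Promoters were within 3000 bp of any transcript start. With 1 library in each group no test was made between genotypes. Shares carry exact Clopper-Pearson 95% intervals (scipy 1.17.1), which cover counting error only. The overlap code gave the same result as bedtools 2.31.1 on 20 of 20 simulated pairs of lists. Sequences came from the RefSeq copy of GRCm38 (pysam 0.24.0). All 8 members are described, with their strongest peaks, known elements and each region lost or gained on both backgrounds. Clusters of regions, and starts other than the first, were chosen after the values were seen. The members and lists were chosen with earlier results of these data known. Alternatives were other windows, overlaps, q values and list sizes.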

Additional observations from a re-analysis of the deposited data

Results flagged for a closer look

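For 8 combinations of gene and mark the number of peaks in the window moved in opposite directions after Ep300 deletion on the WT and Tet2-/- backgrounds, with 1 library in each group, and none of these differences was tested. For H3K27ac this was Lyl1, with a change of 4 on the WT background and -2 on the Tet2-/- background. For H3K4me1 it was Gata2 (-18 and 3), Lmo2 (-5 and 4), Etv6 (-2 and 7) and Zfpm1 (-4 and 6). For H3K4me3 it was Fli1 (1 and -1), Erg (-4 and 3) and Etv6 (-3 and 1). Peak number also moves when 1 wide peak is called as several: for Zfpm1 the length covered by H3K4me1 went from 73.3 to 70.7 kb on the WT background and from 72.5 to 70.0 kb on the Tet2-/- background, the same direction on both.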

How the results depend on the processing

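No paired analysis was possible because each genotype and mark had 1 library. Of 56 alternative values of the shares and percentile counts, 41 stayed within the interval of the value reported or within 1.5 times the count. When a peak within 500 bp counted as shared, H3K27ac loss after Ep300 deletion was 34.8% on the WT background (genome 30.5%) and 35.1% on the Tet2-/- background (genome 28.5%). By this rule H3K27ac loss from WT to Tet2-/- was 34.8% (genome 25.3%). H3K27ac gain on the WT background was 7.89% (genome 7.32%), and H3K4me1 loss on the Tet2-/- background was 8.27% (genome 20.5%). With only peaks of −log10 q of at least 5, H3K27ac loss on the WT background was 59.5% (genome 45.8%), gain there 2.17% (genome 4.46%), and H3K4me1 loss on the Tet2-/- background 30.7% (genome 44.1%). With both lists at equal size, H3K27ac loss was 32.7%, 36.6% and 35.9% in the 3 comparisons in that order, and gain was 29.4% and 25.0% on the WT and Tet2-/- backgrounds (genome 18.8% and 21.9%). The cause of these differences was not tested. At equal size the genome's H3K27ac loss was also lower, at 26.7%, 23.5% and 26.8%. In the 6 alternatives where the genome was treated like the members, the members' share lay above the genome's for H3K27ac loss in these 3 comparisons and below it for H3K4me1 loss on the Tet2-/- background. For gains the order against the genome turned: on the WT background the members' share was above the genome's as reported and below it with −log10 q of at least 5, and on the Tet2-/- background it was below as reported and above it at equal size and with −log10 q of at least 5 (11.9% against 11.7%). When regions at promoters of other genes were left out of the windows, the genome was not treated alike. H3K27ac loss from Ep300Δ/Δ to Ep300Δ/ΔTet2-/-, distal or promoter regions alone in any pair of lists, other H3K4me1 comparisons and H3K4me3 were not rerun. Alternatives for the share lost on both backgrounds were chosen after seeing the data: with −log10 q of at least 5 it was 28.8% (genome 15.9%), and for distal regions at equal list size 13% (genome 17.2%). Of 64 alternative percentiles of single genes 12 moved, among them Gata2 with 10 kb on each side, at 42.9 in WT and 73.8 in Ep300Δ/Δ cells.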
